A study of Mus musculus with 6 samples.

Results

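Genes that respond to ERK signalling, or restrain it, were examined in mouse embryonic stem (ES) cells with a knockout (KO) of Alkbh1 and in wild type (WT) ES cells. The 10 genes are Egr1, Fos, Ier3, Dusp6, Spry2, Spry4, Spred1, Spred2, Etv4 and Etv5, taken by symbol from a table of 23951 genes, of which 14095 were tested. All 10 had a row of their own, all 10 were tested, and none shared its annotated region with another gene. The KO group held 4 libraries of Alkbh1 KO ES cells, from 2 clones with 2 libraries each, and the WT group held 2 libraries of the parental TT2 ES line. Both groups had the mixed C57BL6 x CBA background, were at passage 5 and grew in standard ES medium without feeder cells. The sources used here do not describe the knockout allele. Each clone is the offspring of 1 cell, so an effect of the genotype and a difference between clones cannot be told apart. The Alkbh1 protein is an AlkB-type dioxygenase, a class of enzyme known for demethylating DNA and RNA.

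ERK is the last kinase of a cascade that runs from growth factor receptors through Ras, Raf and MEK. In mouse ES cells its main drive is FGF4, which the cells secrete themselves, and ERK activity moves them from naive pluripotency towards differentiation. Active ERK quickly switches on immediate early genes through Srf and its Ets partners. It later raises the Ets factors Etv4 and Etv5, and it raises its own inhibitors, the Sprouty and Spred proteins and the phosphatase Dusp6. The repressor Cic holds several of these targets off until ERK inactivates it. Transcripts of such genes are therefore widely read as a record of recent ERK activity, although several of them also answer to other signals.

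The table gives each gene 1 value per genotype in FPKM, which counts fragments relative to transcript length and library size. The sources used here do not state which of a genotype's libraries entered that value. No value per library, and hence no SD, can be given, clones cannot be set against each other, and how deeply the libraries were sequenced is unknown. Differences rest on the q-value of the authors' own test, with a gene called at q under 0.05. The labels do not say whether libraries of a group were separate cultures, so these q-values may measure technical spread only. In bulk cultures, fewer cells that use a gene and less RNA of it per cell cannot be told apart.

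Promoter sequence was available for 7 of the 10 genes, from RefSeq on GRCm38.p6, a build other than the mm9 of the expression table. Egr1, Spry4 and Etv4 are only named. Windows ran from 250 bases before the start site to 50 bases after it, with 2 windows for Etv5 and 8 in all. They were searched on both strands for 4 motifs of factors that act in this pathway. These were the octamers bound by Cic (TCAATGAA, TGAATGAA, TCAATGGA and TGAATGGA), the Ets core GGAAGT, the half-site TGACGT of cyclic AMP response elements, and the CArG box that Srf binds. The 100 bases before the start site are printed for 5 genes, chosen with their matches and fold changes seen. They are the feedback genes Dusp6 and Spry2, the immediate early gene Fos, and the paralogs Spred1 and Spred2, whose transcripts moved in opposite directions. Those of Etv5 and Ier3 are not printed. Capitals mark motif matches.
Dusp6, chr10:99263131-99263230, plus strand: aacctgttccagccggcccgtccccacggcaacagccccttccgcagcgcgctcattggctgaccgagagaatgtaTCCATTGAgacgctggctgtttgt
Spry2, chr14:105896820-105896919, minus strand: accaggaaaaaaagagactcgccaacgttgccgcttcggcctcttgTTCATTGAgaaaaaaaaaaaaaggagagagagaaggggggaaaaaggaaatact
Fos, chr12:85473790-85473889, plus strand: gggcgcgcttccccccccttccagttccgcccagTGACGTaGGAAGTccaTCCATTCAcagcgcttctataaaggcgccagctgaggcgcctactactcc
Spred1, chr2:117120971-117121070, plus strand: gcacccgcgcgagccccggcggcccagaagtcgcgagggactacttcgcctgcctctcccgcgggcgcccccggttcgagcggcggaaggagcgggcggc
Spred2, chr11:19924342-19924441, plus strand: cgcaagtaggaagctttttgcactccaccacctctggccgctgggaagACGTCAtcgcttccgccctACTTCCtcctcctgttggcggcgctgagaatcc

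A Cic octamer stood in 3 of the 8 windows, those of Dusp6, Spry2 and Fos, against 3.84% of 32851 RefSeq promoter windows of the same length. The Dusp6 window held it at positions -24 to -17 and again at 2 to 9, counted from the start site, each time in the same letters. In Spry2 it lay at -54 to -47 and in Fos at -50 to -43. The Ets core was found in 3 windows, those of Spred2, Fos and the second start site of Etv5, against 23.8% of all windows. The half-site was found in Spred2 and Fos, against 7.51% of all windows. In Fos the half-site, the Ets core and the octamer lay side by side between -66 and -43 without overlap. No window held a CArG box, which 1.63% of all windows hold, and the windows of Spred1 and Ier3 held none of the 4 motifs. Such a match describes letters and does not show that a factor binds there. Bases outside the windows were not searched, so a window without a match does not show that the gene lacks the site.

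Alkbh1, the targeted gene, stood at 18.1 FPKM in KO and 33.9 FPKM in WT, and in the authors' deposited table its log2 fold change of -0.90 had q = 0.0943, so it was not called. Its annotated region is shared by 5 genes, and reads from undeleted exons would still count towards it. This value therefore does not check the labels, by which the libraries were grouped.

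Of the 10 genes, 7 had a lower value in KO and 3 a higher one, on the deposited scale. If the FPKM totals of KO and WT are made equal, Fos, Spry4 and Etv4 turn higher, which leaves 4 genes below and 6 above 0. In the authors' deposited table, 6 were called lower (Egr1, Dusp6, Spry2, Spred1, Etv4 and Spry4), 3 were called higher (Ier3, Spred2 and Etv5) and Fos was not called. Thus 9 of 10 members were called, where 50.8% of all tested genes were. The 6 lower ones stand beside 28.4% of all tested genes called lower, and the 3 higher ones beside 22.4% called higher. The members' log2 fold changes ran from -2.69 to 1.27 with a median of -0.56, beside -0.06 over all tested genes. With equal totals every value would be 0.65 higher, and the members' median turns to 0.089. By the deposited p, 7 members shared the smallest value in the table, 5e-05, which 3418 tested genes have, so they cannot be ranked by it. At 2-fold or more, 4 members were lower and 1 was higher, where 5.36% of all tested genes were lower and 9.04% higher by that rule. This balance also depends on the scale. With equal totals Egr1 would stand at -2.04, but Dusp6, Spry2 and Spred1 at -0.75, -0.56 and -0.46, short of 2-fold. Ier3, Spred2 and Etv5 would stand at 1.92, 1.56 and 1.14, beyond 2-fold. The shares of all tested genes were not counted on that scale.

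**Figure D1:**
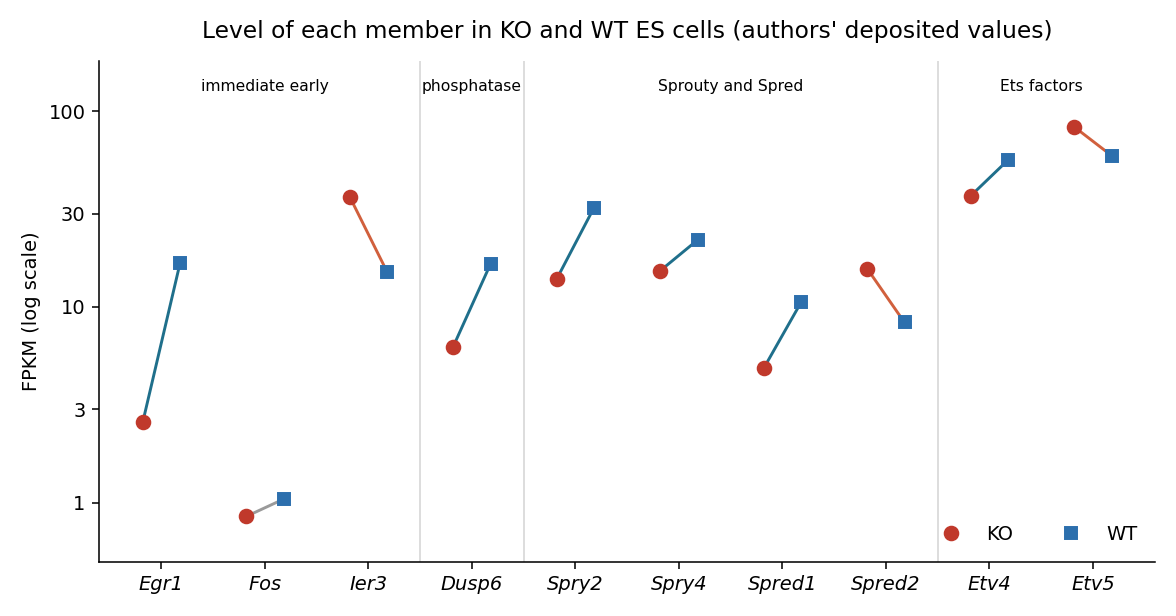
FPKM of each gene (log scale) in KO (circles, left of each pair) and WT (squares, right of each pair), 1 deposited value per genotype with no error available. Lines are blue for genes called lower in KO, orange for genes called higher and grey for Fos, which was not called. Egr1 has the steepest line, at 2.58 FPKM in KO and 16.7 FPKM in WT.

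The immediate early genes did not move together. Egr1, a zinc finger transcription factor induced within minutes of ERK activation (chromosome 18), stood at 2.58 FPKM in KO and 16.7 FPKM in WT, 15.4% of the WT level. The authors' deposited table gives it a log2 fold change of -2.69 (q = 0.000206), and 0.0997% of tested genes had a lower one. Its rank by level changed as well, since 28.1% of tested genes lay below it in KO and 65.9% in WT. Egr1 was thus the member that fell most.

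Fos, which encodes a subunit of the AP-1 transcription factor (chromosome 12, 86814850 to 86818219, mm9), was the least abundant of the 10 in both genotypes. Its level was 0.852 FPKM in KO and 1.04 FPKM in WT. The log2 fold change of -0.29 in the authors' deposited table had q = 0.354 and turns to 0.36 with equal totals. No error of these values is given, and this does not show that Fos was the same in both genotypes. Its promoter window was the one with matches to 3 of the 4 motifs.

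Ier3, a stress and growth factor induced gene that affects cell survival (chromosome 17, 35958657 to 35959856, mm9), went the other way. It stood at 36.5 FPKM in KO and 15.1 FPKM in WT, a 2.41-fold rise with a log2 fold change of 1.27 in the authors' deposited table (q = 0.000206). Of the genes in its decile by level, 99.7% had a lower fold change. The ratio of Ier3 to Egr1, which does not depend on how libraries were scaled, was 14.2 in KO and 0.907 in WT. The ratios and sums given for pairs and families were chosen after the values were seen.

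Dusp6, the phosphatase that removes the activating phosphates of ERK in the cytoplasm (chromosome 10, 98725864 to 98730123, mm9), fell. Its level was 6.28 FPKM in KO and 16.6 FPKM in WT, 37.9% of the WT level, and the authors' deposited table gives a log2 fold change of -1.40 (q = 0.000206). Of the genes of like level, 0.786% had a lower fold change, and of the genes of like transcript length 0.643%. Egr1 and Dusp6 had nearly the same level in WT, but in KO Dusp6 stood above Egr1.

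Both Sprouty genes were called lower, to different extents, with Spry4 turning slightly higher under equal totals. Sprouty proteins block the path from receptors to Ras and Raf. Spry2 (chromosome 14, 106291163 to 106296036, mm9) stood at 13.9 FPKM in KO and 32.1 FPKM in WT, a log2 fold change of -1.21 in the authors' deposited table (q = 0.000206). Spry4 (chromosome 18) stood at 15.3 FPKM in KO and 21.97 FPKM in WT, and its log2 fold change of -0.52 (q = 0.00348 in the authors' deposited table) turns to 0.13 with equal totals. The order of the pair differed, with a ratio of Spry2 to Spry4 of 0.908 in KO and 1.46 in WT. Summed over Spry1, Spry2 and Spry4, the FPKM were 32.3 in KO and 58.6 in WT, a log2 difference of -0.86 that shrinks to -0.21 with equal totals.

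The Spred genes moved in opposite directions. Spred proteins bind the Ras inhibitor neurofibromin and bring it to the membrane. Spred1 (chromosome 2, 116946806 to 117008013, mm9) fell to 4.87 FPKM in KO, against 10.6 FPKM in WT, with a log2 fold change of -1.12 in the authors' deposited table (q = 0.000206). Spred2 (chromosome 11, 19824444 to 19922600, mm9) rose to 15.7 FPKM in KO, against 8.33 FPKM in WT, with a log2 fold change of 0.91 in the authors' deposited table (q = 0.000206). The pair changed places, since the ratio of Spred2 to Spred1 was 3.22 in KO and 0.790 in WT. Their summed levels were close, with Spred1, Spred2 and Spred3 adding up to 21.7 FPKM in KO and 19.999 FPKM in WT, but with equal totals the sum would be 1.71-fold higher in KO. Of the printed promoters, that of Spred2 held a half-site and an Ets core, and that of Spred1 neither. The Fos promoter held both motifs as well, and Fos was not called. A link between motifs and direction was not tested.

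The Ets factors also split. Etv4 and Etv5 are closely related activators that FGF signalling induces. Etv4 (chromosome 11, 101631055 to 101646624, mm9) stood at 36.9 FPKM in KO and 56.3 FPKM in WT, with a log2 fold change of -0.61 in the authors' deposited table (q = 0.000206) that turns to 0.05 with equal totals. Etv5 (chromosome 16, 22381385 to 22439643, mm9), the most abundant member in both genotypes, rose to 83.1 FPKM in KO, against 59.3 FPKM in WT, with a log2 fold change of 0.49 in the authors' deposited table (q = 0.00448). In WT the pair was close to even, with a ratio of Etv5 to Etv4 of 1.05, and in KO the ratio was 2.25. With the third relative Etv1 added, the family summed to 122.1 FPKM in KO and 119.2 FPKM in WT, and with equal totals the sum would be 1.61-fold higher in KO.

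**Figure D2:**
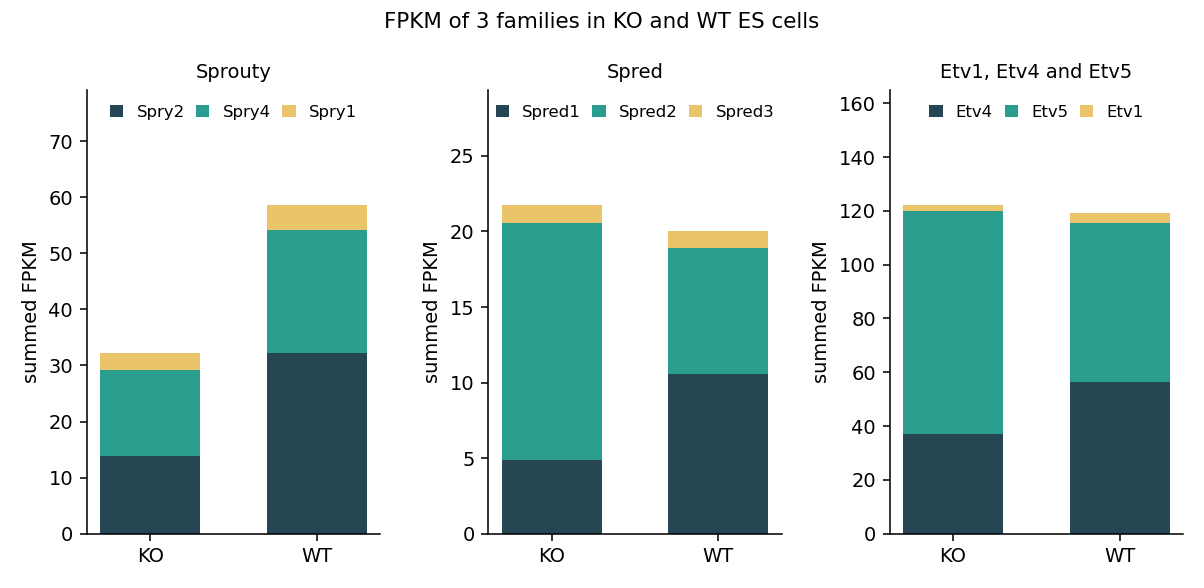
Stacked bars of FPKM in KO (left bar) and WT (right bar) for the Sprouty, Spred and Etv1, Etv4 and Etv5 genes, 1 deposited value per gene and genotype with no error available. The Sprouty stack is lower in KO (32.3 against 58.6 FPKM), while as deposited the totals of the other 2 families are close and the shares of their paralogs differ; with equal totals those sums would be 1.71-fold (Spred) and 1.61-fold (Etv) higher in KO.

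By level the 10 genes spread widely, from 0.852 to 83.1 FPKM in KO and from 1.04 to 59.3 FPKM in WT. In KO the order from high to low began with Etv5, Etv4, Ier3 and Spred2. In WT it began with Etv5, Etv4, Spry2 and Spry4. Whether neighbours in these orders differ beyond the spread between libraries cannot be said without values per library.

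Fold changes in the whole table depended on level, which bears on the members of small fold change. The median log2 fold change was 0.69 in the lowest decile by mean FPKM and -0.72 in the highest, and the share of genes called lower was 5.48% in the lowest and 77.3% in the highest. Set against genes of their own decile, Egr1, Dusp6, Spred1 and Spry2 differed from its median by -2.66, -1.37, -1.08 and -0.87 on the log2 scale, and Ier3, Spred2 and Etv5 by 1.61, 1.06 and 0.997. Spry4 differed by -0.37 and Etv4 by -0.10, with 24.3% and 39.4% of the genes of their decile lower still. Fos, which was not called, differed by -0.75, with 17.2% of its decile lower still. In that comparison Etv4 was thus close to the middle of genes of its level. Over all tested genes the FPKM added up to 624340 in KO and 981679 in WT, so the KO total was 63.6% of the WT total. Were these totals equal, every log2 fold change would be 0.65 higher, and the 9 called members would split into 4 below and 5 above 0. All tested genes would shift alike, and their own split on that scale was not counted. Splits under equal totals, of members or of lists, therefore cannot be set beside the deposited shares of all tested genes called lower and higher.

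**Figure D3:**
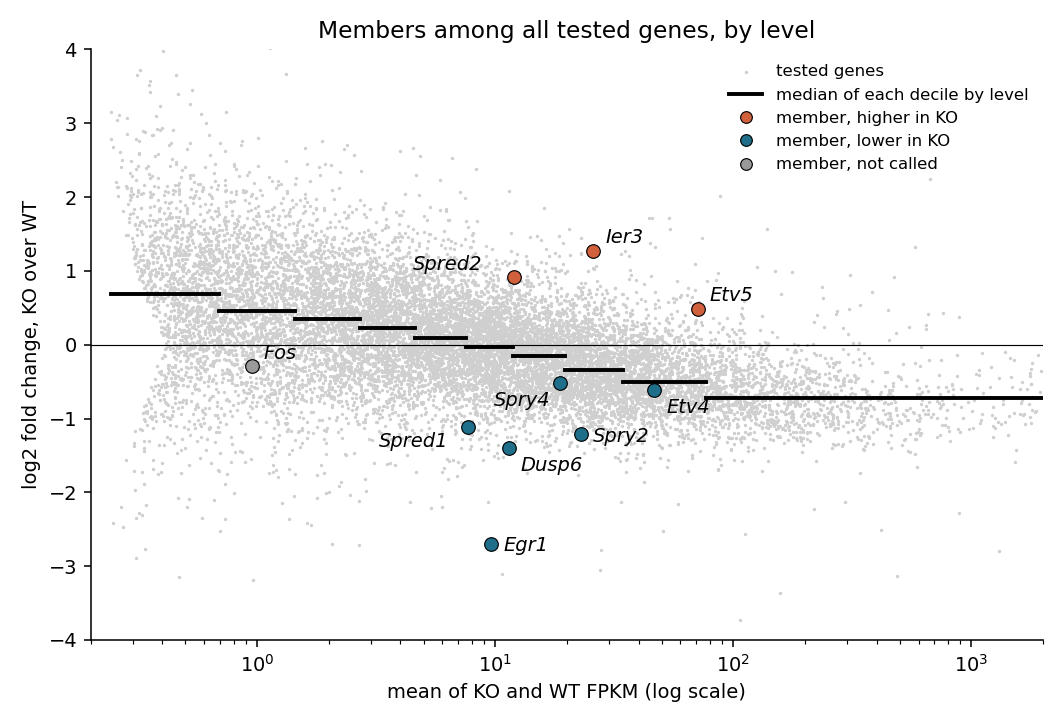
Log2 fold change of KO over WT against the mean FPKM of both genotypes (log scale) for tested genes with both values above 0, with black bars for the median of each decile and the 10 members coloured by call. A few genes lie outside the plotted range. Egr1, Dusp6, Spred1, Spry2, Fos and Spry4 lie below the bars of their level, Etv4 lies next to its bar, and Ier3, Spred2 and Etv5 lie above theirs.

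Transcript length, along which fold changes also ran, left the directions as they were. The longest annotated transcript of the members ran from 1131 bases (Ier3) to 6016 bases (Spred1). Ier3 differed by 1.73 from the median of its length decile, the shortest, which was -0.46. Spred1 differed by -1.32 from a median of 0.20. Fos, at a difference of -0.0024, was at the middle of genes of like length, though it lay below the median of genes of like level.

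Genes next to the members, examined after the members' values were seen, were called about as often in either direction. Of 100 tested neighbours, 5 on each side of each member, 21 were called lower and 18 higher, where 28.4% and 22.4% of all tested genes were. The stretch they covered ran from 0.23 Mb around Ier3 to 10.5 Mb around Spry2, so some neighbours lie far from their member. Their medians ran from -0.37 around Etv5, which itself rose, to 0.44 around Etv4, which was called lower. Around Egr1 the median was 0.02, with 2 of 10 neighbours lower and 2 higher, and around Dusp6 it was 0.13 with none lower and 3 higher.

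**Figure D4:**
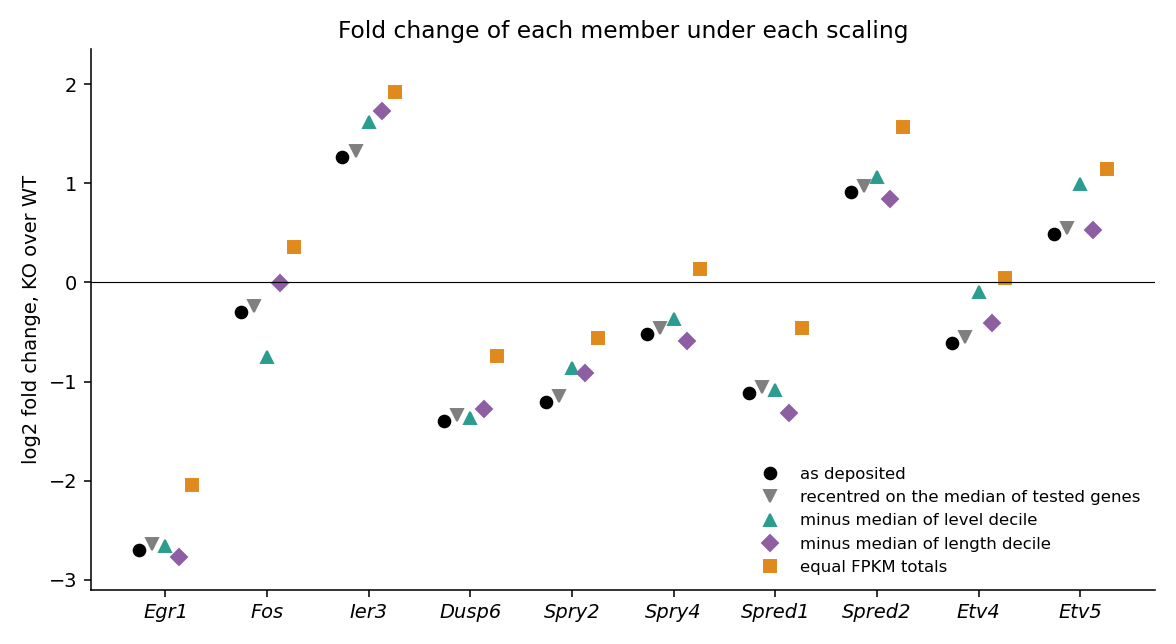
Log2 fold change of KO over WT of each member as deposited and under 4 other scalings, 1 symbol per scaling. Fos, Spry4 and Etv4 are the genes with a value above 0 under equal FPKM totals and below 0 as deposited, and the other 7 keep their side of 0 under all 5.

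The rest of the pathway was described by 6 lists of genes, chosen, like the members, with earlier results of these data known. Of 128 genes on them, 112 were tested, and 29 were called lower and 23 higher (25.9% and 20.5%), close to the 28.4% and 22.4% of all tested genes. With equal totals the same calls would split into 21 below and 31 above 0. Their median log2 fold change was 0.09, beside -0.06 over all tested genes and -0.56 over the members.

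Upstream, the ligand and receptor that dominate FGF signalling in ES cells were not called. Fgf4 stood at 73.6 FPKM in KO and 69.5 FPKM in WT (q = 0.675 in the authors' deposited table), and Fgfr1, whose region is shared with another gene, at 18.4 FPKM in KO and 15.8 FPKM in WT (q = 0.245 in the authors' deposited table). Both were named with their values seen. Of 20 tested ligands, receptors and adaptors, 4 were lower and 7 higher, or 20% and 35%, where 28.4% and 22.4% of all tested genes were. The ligand gene Fgf17 fell to 2.30 FPKM in KO, against 9.51 FPKM in WT, a log2 fold change of -2.05 in the authors' deposited table, and the receptor gene Fgfr2 to 1.55 FPKM in KO, against 2.98 FPKM in WT. The receptor gene Fgfr4 rose to 1.11 FPKM in KO, against 0.413 FPKM in WT, and the ligand gene Fgf3 to 1.20 FPKM in KO, against 0.637 FPKM in WT. Fgfr4 and Fgf3 lie in decile 2 by level, counted from the lowest, where 40.1% of genes were called higher. Against the medians of their level deciles, Fgf17 and Fgfr2 differed by -2.13 and -1.29, and Fgfr4 and Fgf3 by 0.97 and 0.45.

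In the cascade itself, 5 of 25 tested genes were called lower and 6 higher, or 20% and 24%, beside 28.4% and 22.4% of all tested genes. With equal totals the split would be 3 below and 8 above 0. The Ras gene Nras fell to 26.3 FPKM in KO, against 49.6 FPKM in WT (log2 fold change -0.92 in the authors' deposited table), and the MEK scaffold gene Lamtor3 to 22.8 FPKM in KO, against 42.4 FPKM in WT. The scaffold gene Iqgap1 rose to 34.8 FPKM in KO, against 19.04 FPKM in WT, and Rps6ka2, which encodes a kinase that ERK activates, to 7.04 FPKM in KO, against 3.83 FPKM in WT.

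Among 16 tested negative regulators outside the members, 3 were lower and 2 higher. These are 18.8% and 12.5%, less than the 28.4% and 22.4% of all tested genes. Sulf1, which encodes a sulfatase that trims the heparan sulfate FGF receptors need, fell to 3.50 FPKM in KO, against 11.03 FPKM in WT, a log2 fold change of -1.66 in the authors' deposited table. Spry1 stood at 3.05 FPKM in KO and 4.47 FPKM in WT, with a log2 fold change of -0.55 in the authors' deposited table that turns to 0.10 with equal totals. Dusp4, named after its values were seen, was just inside the threshold at q = 0.0499 in the authors' deposited table, and its log2 fold change of -0.43 turns to 0.23 with equal totals. Cbl, which encodes a ubiquitin ligase that marks receptors for breakdown, rose to 3.90 FPKM in KO, against 1.12 FPKM in WT, and Dusp16, a phosphatase gene for other MAP kinases, to 10.7 FPKM in KO, against 7.87 FPKM in WT.

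Of 23 tested immediate early genes outside the members, 10 were lower and 2 higher, or 43.5% and 8.70%, where 28.4% and 22.4% of all tested genes were. With equal totals the split would be 8 below and 4 above 0. The proto-oncogene Myc fell to 5.16 FPKM in KO, against 14.6 FPKM in WT, a log2 fold change of -1.50 in the authors' deposited table, and Ctgf, a secreted matrix protein gene, to 3.89 FPKM in KO, against 7.99 FPKM in WT. Btg2, an antiproliferative gene that p53 also induces, rose to 25.8 FPKM in KO, against 11.2 FPKM in WT, and the stress gene Gadd45b to 12.7 FPKM in KO, against 7.96 FPKM in WT. The closest relatives of Egr1 and Fos, named after their values were seen, were hardly detected. Egr2, Egr3, Egr4 and Fosb were not tested and lay at or under 0.0519 FPKM in KO and 0.171 FPKM in WT. Fosl1 and Fosl2 were not tested either. Fosl1 stood at 0.0571 FPKM in KO and 0.0162 FPKM in WT, and Fosl2 at 0.291 FPKM in KO and 0.249 FPKM in WT.

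Of 19 tested Ets family and upstream regulator genes, 3 were lower and 3 higher. Each is 15.8%, less than the 28.4% and 22.4% of all tested genes. Etv1 fell to 2.11 FPKM in KO, against 3.58 FPKM in WT, a log2 fold change of -0.76 in the authors' deposited table. Creb1, whose protein binds cyclic AMP response elements, stood at 5.42 FPKM in KO and 8.12 FPKM in WT, and its log2 fold change of -0.58 in the authors' deposited table turns to 0.07 with equal totals. The repressor gene Cic rose to 12.1 FPKM in KO, against 6.21 FPKM in WT (log2 fold change 0.96, q = 0.000206 in the authors' deposited table), and the Ets gene Elf4 to 2.67 FPKM in KO, against 0.773 FPKM in WT. Srf, named after its values were seen and sharing its region with a microRNA gene, had q = 0.0483 and a log2 fold change of -0.39 in the authors' deposited table, which turns to 0.27 with equal totals.

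Of 9 tested genes that ERK induces in various other cells, 4 were lower and 3 higher. These are 44.4% and 33.3%, beside 28.4% and 22.4% of all tested genes. The G1 cyclin gene Ccnd1 fell to 21.3 FPKM in KO, against 35.4 FPKM in WT, and the membrane protein gene Emp1 to 1.46 FPKM in KO, against 2.87 FPKM in WT. The cytokine gene Lif rose to 1.57 FPKM in KO, against 0.927 FPKM in WT, and the receptor kinase gene Epha2 to 19.4 FPKM in KO, against 12.9 FPKM in WT. Against the medians of their level deciles, Lif differed by 0.30 and Epha2 by 0.74.

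**Figure D5:**
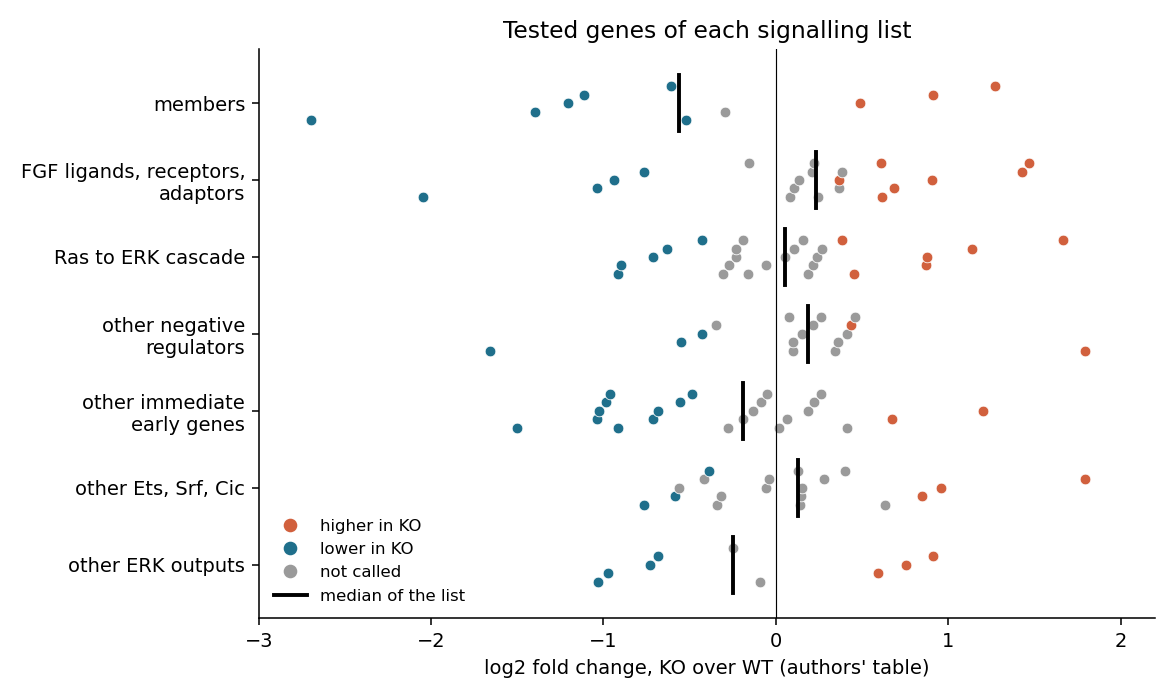
Log2 fold change of KO over WT in the authors' table, 1 point per tested gene, for the members and the 6 signalling lists, coloured by call, with a black bar at the median of each list. Points are spread vertically for legibility only. The members' median is -0.56, and the medians of the 6 lists lie between -0.25 and 0.23.

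Markers of cell state are given beside these results, and their part in them was not tested. Of 13 tested ES cell markers 10 were called lower and 1 higher, and 9 of the 13 were in the highest decile by level, where 77.3% of all genes were called lower. Against genes of like level their median difference was -0.04 on the log2 scale, with 7 below and 6 above 0, so the count is near that for genes of their level. All 14 listed ES markers, the untested Nanog included, stood at 22.6 FPKM or more in KO and 13.8 FPKM or more in WT and summed to 4999 FPKM in KO and 8149 FPKM in WT.

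Of 7 tested markers of the primed epiblast, the state towards which ERK drives ES cells, 5 were called lower and none higher, where 28.4% and 22.4% of all tested genes were. Against genes of like level all 7 lay below 0, with a median of -0.61. Over the 9 listed genes the sums were 78.2 FPKM in KO and 132.5 FPKM in WT. Endoderm markers had 2 lower and 4 higher of 6 tested, neural markers 3 and 2 of 7, and fibroblast markers 2 and 5 of 7. Of all tested genes 28.4% were called lower and 22.4% higher, and in the lowest decile by level 41.3% were called higher. Against genes of like level, endoderm markers had 3 below and 3 above 0, with a median of 0.21. Neural markers had 3 and 4 (median 0.14), and fibroblast markers 2 and 5 (median 0.58). Over all listed genes, tested or not, the endoderm list summed to 13.3 FPKM in KO and 9.73 FPKM in WT. The neural list summed to 52.5 FPKM in KO and 55.5 FPKM in WT, most of it from Tubb3 (42.4 and 43.1 FPKM, not called). Within it Sox1, Pax6 and Sox11 were called lower and Map2 and Ncam1 higher. The fibroblast list summed to 124.8 FPKM in KO and 123.9 FPKM in WT, most of it from Fn1 and Vim. These moved in opposite directions, Fn1 to 86.4 FPKM in KO, against 51.9 FPKM in WT, and Vim to 21.99 FPKM in KO, against 61.4 FPKM in WT. The fibroblast markers Col3a1, Postn, Lum and Twist2 were listed at 0 in WT, lay at or under 0.0268 FPKM in KO and were not tested. Of the 7 tested fibroblast markers, Col1a1, Thy1, Pdgfrb, Fn1 and Fbln1 were called higher and Acta2 and Vim lower. Thy1 stood at 9.39 FPKM in KO and 6.43 FPKM in WT, and Fbln1 at 5.16 FPKM in KO and 2.90 FPKM in WT. Marker genes in this paragraph were named after their values were seen.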

How the data were processed

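The members and all gene lists were chosen with earlier results of these data known. Per the labels' protocols, total RNA was made into strand-specific messenger RNA libraries, and reads were aligned with TopHat2 to mm9, per the submitters' processing notes. Neither the annotation nor the scaling between libraries is stated there. The deposited table has the layout of a Cuffdiff comparison, per the file headers, with 1 FPKM value per genotype computed by the authors. Its log2 fold change, test statistic (a score, not used), p-value and q-value are the authors' own. The deposited q differed by at most 5.18e-07 from one recomputed by Benjamini-Hochberg over all 14095 tests. Genes were called at q under 0.05. Log2 fold changes as deposited were off the FPKM ratio by over 0.0001 in 1 of 14039 rows, and 56 tested genes listed at 0 in 1 genotype were left out of medians.

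Deciles were formed by mean FPKM and by the longest GENCODE M21 transcript (found for 99.2% of tested genes). The level adjustment was tested on simulated data whose genes were classed by the simulated WT level, where the real classes use mean FPKM. Equal totals and recentring were tested on simulated data too, and the length adjustment and the pseudocount were not. Genes named from the lists are the 2 called genes with the largest fold change in each direction that reach 1 FPKM and share no region, and others are marked. Results on some genes of the lists are not reported here. Python 3.11.15, NumPy 2.4.6, pandas 2.3.3 and Matplotlib 3.10.9 were used.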

Additional observations from a re-analysis of the deposited data

How the results depend on the processing

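No test could be rerun on another scale, so the deposited q was carried over and only directions could change there. All 10 members kept their sign after recentring, against genes of like level or length, and with a pseudocount of 1, although Etv4 shrank to -0.10 against genes of like level. With equal FPKM totals, Fos, Spry4 and Etv4 turned to 0.36, 0.13 and 0.046 on the log2 scale, 6 members lay above 0 (5 of them called), and the members' median turned to 0.089. The median was -0.50 after recentring on all tested genes, -0.50 against genes of like length, -0.54 with a pseudocount of 1, and -0.61 after dropping genes under a mean of 2.02 FPKM, which leaves out Fos. Requiring a 2-fold difference on the deposited scale left 5 members called, 1 of them higher. In the signalling lists that rule left 14 genes, 7 lower and 7 higher. Spry4, Spred2, Etv4 and Etv5 are the members the rule takes out, by its construction. By list, the 2-fold rule left 2 lower and 2 higher of the ligands and receptors, 0 and 2 of the cascade, 1 and 1 of the negative regulators, 3 and 1 of the immediate early genes, 0 and 1 of the Ets and upstream regulators, and 1 and 0 of the other outputs. Thresholds of 0.01 and 0.1 changed no member's call. At 0.01 the negative regulators had 1 lower and 1 higher, and at 0.1 the Ets list had 5 lower. With equal totals the calls split into 3 lower in the cascade, 1 lower and 4 higher negative regulators, 4 higher immediate early genes, and 1 lower and 5 higher in the Ets list, and the filter on level left 3 ligand and receptor genes higher. No paired analysis was possible because the table holds no value per library, and for the same reason no library could be left out. Depth is unknown, so precision for low genes such as Fos cannot be given.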
